A study of Rattus norvegicus with 44 samples.

Results

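Dasatinib is a small-molecule inhibitor of protein tyrosine kinases that was given, together with quercetin, to a group of older rats, and the RNA of 10 of the kinases it is known to target was measured in the dentate gyrus (DG) of the hippocampus. The 10 genes encode the Src family kinases Src, Fyn, Yes1 and Lyn, the Abl kinases Abl1 and Abl2, and the receptor kinases Kit, Pdgfra, Pdgfrb and Ddr1. They were chosen as targets of the drug, with earlier results of these data known, and were found by symbol among 18347 gene identifiers. All 10 were among the 15598 genes tested, the genes whose normalized values averaged 5 or more. A normalized value is the estimated number of reads of a gene in a library after scaling of the library by its median ratio to the others, summed over the rows that the deposited table gives for the gene.

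Each of 44 male F344 rats gave 1 library. The young group (YNG, n = 10) was 6 months old and had been given vehicle. The older rats began treatment at 12 months of age, were sampled at about 18 months, and received vehicle (AV, n = 12), ABT-263 at 12 mg/kg (AA, n = 11) or dasatinib at 1.2 mg/kg with quercetin at 12 mg/kg (ADQ, n = 11). Agents were given by oral gavage on 5 days of each of 8 cycles, with a last round after the behavioral tests. All rats were of the same inbred strain with no transgene, and the DG of a single hemisphere was used. ADQ rats received both compounds, so an effect of dasatinib and an effect of quercetin cannot be told apart, and no group received dasatinib alone. ABT-263 is an inhibitor of BCL-2 family proteins. The labels name no treatment and give the age of all older rats as 12 months, the age at which treatment began. Treatments were taken from a deposited list of sample attributes in which rats are named, and the age at sampling from the paper.

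Tyrosine kinases pass signals on by adding phosphate to tyrosines of their substrates, and dasatinib occupies the ATP site of the kinase protein. The RNA level of a target therefore measures neither kinase activity nor its inhibition. In the brain, Src and Fyn are known as kinases of neuronal and glial membranes that phosphorylate NMDA receptor subunits, Lyn is a kinase of microglia and other myeloid cells, and Abl1 and Abl2 act on the actin cytoskeleton. Kit is the receptor for stem cell factor, Pdgfra marks oligodendrocyte precursors, Pdgfrb marks pericytes and other mural cells of vessels, and Ddr1 is a collagen receptor found in oligodendrocytes.

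The sum of normalized values ranged from 14297964 to 20579982 per rat and was highest in YNG (median 16660960, against 15376067 to 15537154 in the older groups). Markers of dentate granule cells were present in every rat: 9 of 10 listed genes were in the table, and their summed value ranged from 11182 to 34708. Rats 3989 (AV) and 4107 (AA) stood apart, with the lowest granule cell sum of their group (14021 and 11182) and the highest sum of CA1 pyramidal cell markers (29281 and 43703). Rat 3989 also had the highest sums in AV for oligodendrocyte, microglia, pericyte, endothelial and red blood cell markers. The rat numbers fall into a lower series (a, 22 rats) and a higher series (b, 22 rats), each with rats of all groups. The labels name no batch, and this division was known from earlier results of these data. Within series b the AV rats are numbered 4566 to 4572 and the AA and ADQ rats 4031 to 4110. There, treatment and run of rat numbers cannot be told apart, which also holds for differences between the series. Calls of members over all rats that change without rat 3989 are given both ways. Values within series a include rat 3989 and were not fitted again without it. In bulk tissue, fewer cells of a type and less RNA per cell cannot be told apart.

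The stretches upstream of Kit and Abl2 are shown because these were the members called higher in ADQ than in AV. They are the 250 bases before the annotated start in RefSeq (build GRCr8, which is not the build of the deposited values), written 5′ to 3′ on the strand of the gene. Capitals mark the GC box letters GGGCGG or, for the other strand, CCGCCC.
Kit, chr14:32978813-32979062, minus strand: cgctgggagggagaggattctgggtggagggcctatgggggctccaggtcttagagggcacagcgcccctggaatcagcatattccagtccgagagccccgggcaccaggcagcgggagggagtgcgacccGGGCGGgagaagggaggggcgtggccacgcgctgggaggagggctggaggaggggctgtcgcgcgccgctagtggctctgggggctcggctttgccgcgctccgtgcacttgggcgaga
Abl2, chr13:71223699-71223948, plus strand: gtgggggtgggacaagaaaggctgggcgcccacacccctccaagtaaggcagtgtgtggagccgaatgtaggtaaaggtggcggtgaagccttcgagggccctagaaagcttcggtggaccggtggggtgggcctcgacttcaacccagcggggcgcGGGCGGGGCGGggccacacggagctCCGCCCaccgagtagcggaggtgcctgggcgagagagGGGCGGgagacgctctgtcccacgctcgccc
Kit held this motif 1 time and Abl2 4 times, of which 2 share a base, and 30.5% of 33469 promoters in the table held it on either strand. The GC content was 70.8% for Kit and 69.2% for Abl2. The table held 8 of the 10 members, and the motif count was 0 for Src and Pdgfra, 3 for Fyn and Abl1 and 4 for Yes1, while Ddr1 had 2 promoters with counts of 0 and 4.

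**Figure D1:**
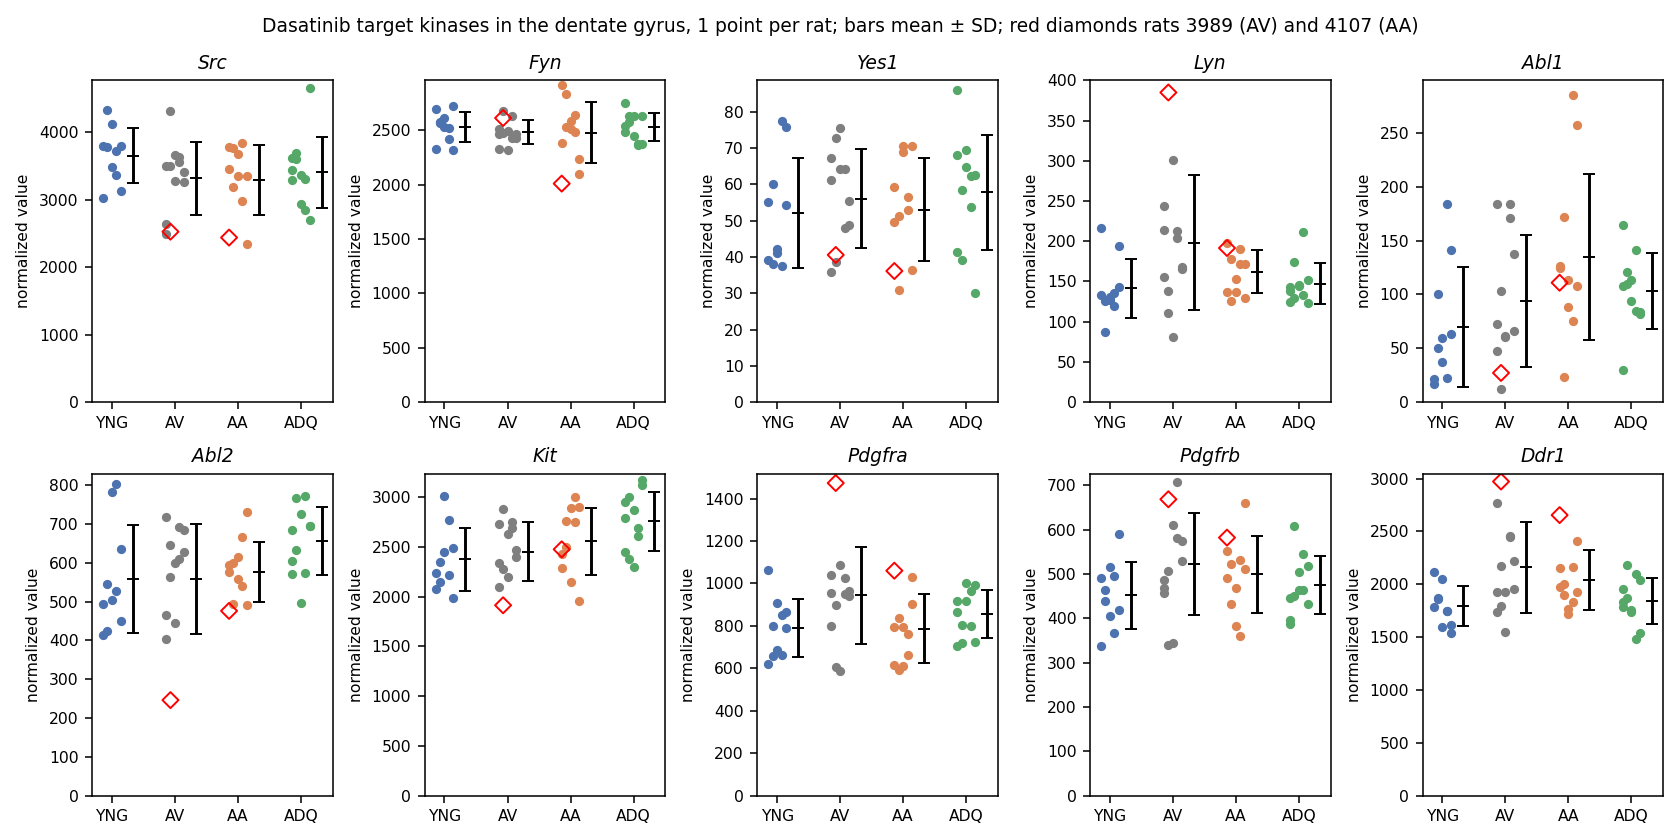
Normalized value (y axis, from 0) of each member by group, 1 point per rat, with the group mean and SD in black and rats 3989 and 4107 as red diamonds. Rat 3989 holds the highest AV value of Lyn (385), Pdgfra (1473) and Ddr1 (2972) and the lowest of Abl2 (246) and Kit (1912), and the groups overlap for every member.

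The first question was whether transcripts of the drug's targets differed between ADQ and AV rats. Of the 10 members, 4 differed at an unadjusted p below 0.05 (limma, all genes in a single fit): Kit and Abl2 were higher in ADQ, and Lyn and Ddr1 were lower. Over all genes tested 9.32% were called (3.42% higher and 5.9% lower). No member passed an adjusted p of 0.05, nor did any of the genes tested. Without rat 3989 none of the 10 was called, against 6.89% of all genes, and without rats 3989 and 4107 Ddr1 alone was called.

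Kit, the stem cell factor receptor, ranged from 1912 to 2880 in AV (median 2431) and from 2298 to 3171 in ADQ (median 2791). The mean was 2448 ± 296 (SD, n = 12) in AV and 2756 ± 299 (SD, n = 11) in ADQ. The upper part of the ADQ range lay above all AV rats, but most values of the groups overlapped, and the ADQ rat was the higher in 75.8% of the 132 pairs. The difference was 0.17 on the log2(value + 1) scale (standard error 0.08, 1.13-fold; limma, p = 0.0298, adjusted p = 0.485), and a permutation test gave p = 0.0233. Leaving out a rat ended the call for 5 of 44 rats (3989, 4571, 4007, 4032 and 4106), with the highest p, 0.0687, without 3989. Within the rat series the difference was 0.06 in series a (limma, p = 0.583) and 0.27 in series b (limma, p = 0.0101). The difference between the series was not past the threshold (limma, p = 0.152).

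Abl2, a kinase of the actin cytoskeleton, ranged from 246 to 720 in AV (median 604) and from 496 to 773 in ADQ (median 684). Rat 3989 gave the AV minimum, and the next lowest AV rat had 405. The difference was 0.27 (standard error 0.13, 1.21-fold; limma, p = 0.0373, adjusted p = 0.511). It was 0.17 without rat 3989 (p = 0.119), a permutation test of all rats gave p = 0.0583, and 10 of 44 fits that left out a rat did not call it. The value was alike in series a (0.26) and series b (0.28), with neither past the threshold on its own. AA rats had a mean of 577 ± 77.6 (SD, n = 11) against 656 ± 88.1 (SD, n = 11) in ADQ, a difference of -0.19 that limma did not call over all groups (p = 0.161) and the permutation test of these 2 groups did (p = 0.0397).

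Ddr1, the collagen receptor, had a mean of 2159 ± 432 (SD, n = 12) in AV and 1842 ± 216 (SD, n = 11) in ADQ. AV values ran from 1546 to 2972 (median 2061) and ADQ values from 1486 to 2178 (median 1829). The 4 highest AV rats (2972, 2773, 2456 and 2446) were above every ADQ rat, and the lowest AV rats were inside the ADQ range. The difference was -0.21 (standard error 0.09, 0.863-fold; limma, p = 0.0191, adjusted p = 0.442), with p = 0.0433 by permutation. Without rat 3989 it was -0.17 (p = 0.0511), and this was the only rat whose removal ended the call. It was -0.29 in series a (limma, p = 0.0315) and -0.15 in series b (limma, p = 0.226). The difference between the series, -0.14, was not past the threshold (limma, p = 0.449). Oligodendrocyte markers were lower in ADQ than in AV for 4 of 10 genes and higher for none (1 lower without rat 3989), where 9.32% of all genes were called. Their summed value ranged from 57226 to 182701 in AV and from 63249 to 80976 in ADQ. Their part in the difference of Ddr1 was not tested.

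Lyn, the Src family kinase of myeloid cells, ranged from 81.3 to 385 in AV (median 186) and from 124 to 212 in ADQ (median 143). AV held both the highest and the lowest rats of these groups, and its SD was 83.6 against 25.7 in ADQ. The difference was -0.33 (standard error 0.16, 0.797-fold; limma, p = 0.0485, adjusted p = 0.532) and -0.23 without rat 3989 (p = 0.133), and 28 of 44 fits without a rat did not call it. The permutation test gave p = 0.108. In series a, the 6 AV rats had 155 to 385, the highest being rat 3989, and the 5 ADQ rats 124 to 144. The difference there was -0.77 (limma, p = 0.000846, adjusted p = 0.585, with 6.38% of all genes called) and was not fitted again without rat 3989. The share of all genes whose ranges were separate in these rats was not counted. In series b the difference was 0.10 (limma, p = 0.638), and the series differed by -0.87 (limma, p = 0.00547, adjusted p = 0.961).

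Markers of several cell types were also lower in ADQ than in AV, with none higher: 7 of 10 for microglia (5 without rat 3989), 6 of 6 for red blood cells (1 without rat 3989) and 5 of 8 for endothelial cells (3 without rat 3989). Of all genes 9.32% were called (5.9% lower), and 6.89% without rat 3989. These lists had the largest shares. Among the others, 2 of 10 pericyte and mural cell and 1 of 10 astrocyte markers were lower, and no meningeal or granule cell marker was called. For CA3 pyramidal and mossy cells 2 of 8 were higher and 1 lower, and for interneurons 1 of 10 was higher. The summed value of microglia markers was 4393 to 9705 in AV and 3842 to 5050 in ADQ, and no marker was at 0 in all rats. The part of these cell types in the difference of Lyn was not tested.

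The other 6 members were not called between ADQ and AV. Src had a mean of 3313 ± 533 (SD, n = 12) in AV and 3405 ± 527 (SD, n = 11) in ADQ, a difference of 0.04 with a 95% interval of -0.14 to 0.23. Fyn had 2485 ± 111 in AV and 2527 ± 129 in ADQ, and its interval, -0.08 to 0.13, was the narrowest of the members. Yes1, a close relative of Src, was low, with 30.1 to 85.9 in the older rats and an interval of -0.30 to 0.37. Pdgfra and Pdgfrb, the PDGF receptors, had differences of -0.11 (interval -0.34 to 0.12) and -0.12 (interval -0.34 to 0.10). Abl1 had the widest interval, -0.41 to 1.16 around 0.37. These intervals leave room for differences in either direction, widest for Abl1.

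**Figure D2:**
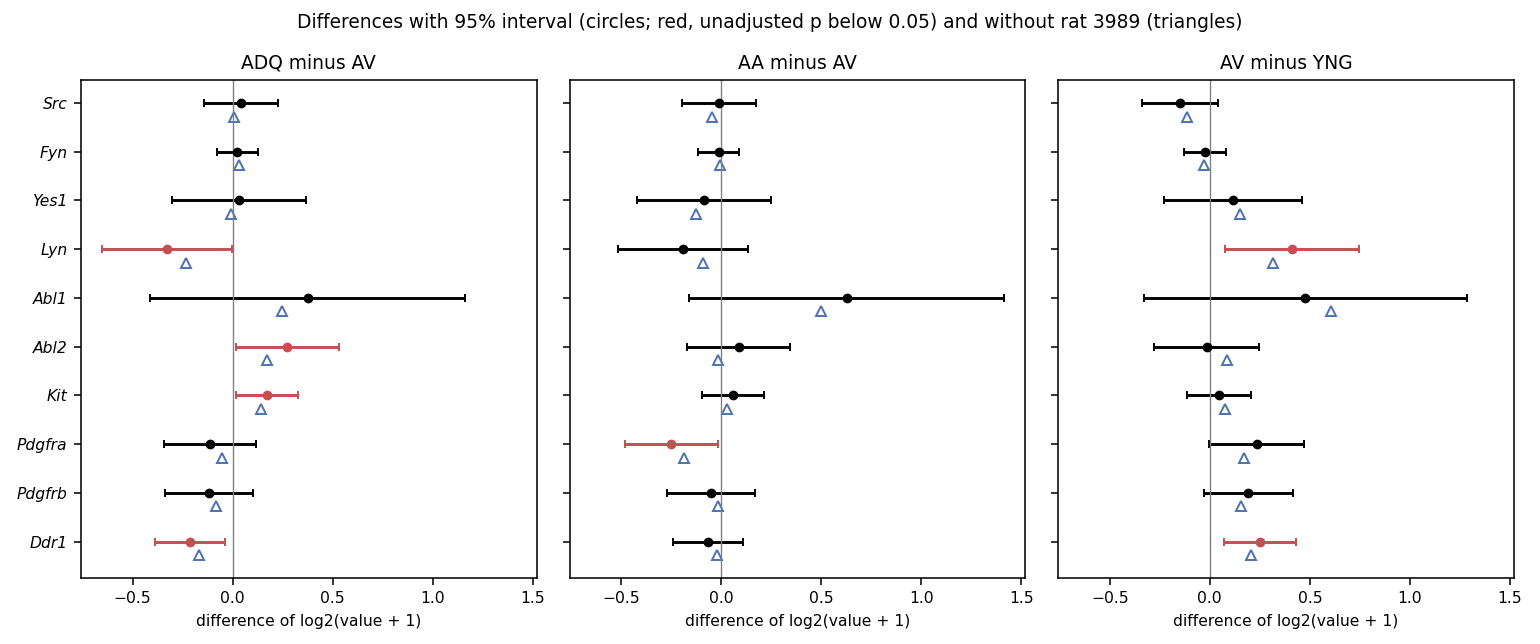
Difference of log2(value + 1) (x axis) for each member in ADQ minus AV, AA minus AV and AV minus YNG, with the 95% interval from limma (circles, red where the unadjusted p was below 0.05) and the value without rat 3989 (triangles). In ADQ minus AV the triangles of Kit, Abl2, Lyn and Ddr1 all lie nearer to 0 than the circles.

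AA rats were compared with the same AV rats, so the comparisons share their controls. Of the 10 members, Pdgfra alone was called and was lower in AA, where 4.51% of all genes were called (1.4% higher and 3.1% lower). Pdgfra values were 588 to 1473 in AV (median 952) and 593 to 1060 in AA (median 794). Both groups reached down to about the same lowest value, and rat 3989 gave the highest. The difference was -0.25 (standard error 0.11, 0.841-fold; limma, p = 0.0353, adjusted p = 0.999). It was -0.19 without rat 3989 (p = 0.0936) and -0.23 without rats 3989 and 4107 (p = 0.0376), the permutation test gave p = 0.0829, and 8 of 44 fits without a rat did not call it. Series a and b gave -0.29 and -0.18, neither past the threshold. None of 8 oligodendrocyte precursor markers was called in AA against AV, with summed values of 4020 to 7936 in AV and 3670 to 8328 in AA. Among other lists, 3 of 8 endothelial, 2 of 10 pericyte and mural cell and 1 of 10 astrocyte markers were lower in AA. Higher were 2 of 10 interneuron and 1 of 8 CA3 pyramidal and mossy cell markers. The part of these cell types in the difference of Pdgfra was not tested.

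For Kit, Abl2, Lyn and Ddr1 the AA minus AV differences were 0.06, 0.09, -0.19 and -0.07, with none called. Between AA and ADQ none of the 10 members was called by limma at an unadjusted p below 0.05, against 4.53% of all genes (2.13% higher and 2.4% lower). The differences ran from -0.19 (Abl2, interval -0.45 to 0.08) to 0.25 (Abl1, interval -0.55 to 1.06).

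The age comparison set AV against YNG. Lyn and Ddr1 were higher in AV, that is 2 of 10 members, where 21.3% of all genes were called (10.6% higher and 10.7% lower). No member passed an adjusted p of 0.05, which 2.35% of all genes did. The mean of Lyn was 141 ± 37.2 (SD, n = 10) in YNG against 198 ± 83.6 (SD, n = 12) for AV, a difference of 0.41 (standard error 0.17, 1.33-fold; limma, p = 0.0166, adjusted p = 0.148). YNG values of Lyn ran from 87.1 to 216 with a median of 132, and 3 AV rats lay above all of them. The call held in each of the 44 fits that left out a rat, with the highest p without V2 (0.0472), but not in the permutation test (p = 0.0739), in a fit of these groups alone (0.0556) or with the library total as a term (0.0503). It rested on series a, which holds rat 3989. There it was 0.79 (limma, p = 0.000374, adjusted p = 0.00566, where 35.8% of all genes were called), against 0.01 in series b (limma, p = 0.97, where 4.91% were called).

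Ddr1 was 1793 ± 190 (SD, n = 10) in YNG, with a range of 1535 to 2114, and 6 of 12 AV rats were above that range. The difference was 0.25 (standard error 0.09, 1.19-fold; limma, p = 0.00778, adjusted p = 0.112; permutation p = 0.02), and each of the 44 fits without a rat called it. It was 0.21 without rat 3989 (p = 0.0212), and from the row with the highest mean alone it was 0.24 and not called (p = 0.0665). Unlike Lyn, it was 0.19 in series a (limma, p = 0.122) and 0.33 in series b (limma, p = 0.0194). The difference between the series, -0.14, was not past the threshold (limma, p = 0.451). Oligodendrocyte markers were higher in AV than in YNG for 8 of 10 genes (6 without rat 3989) and lower for none, where 21.3% of all genes were called. Their summed value was 44962 to 123990 in YNG, and their part was not tested.

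The PDGF receptors were not called in AV against YNG over all rats (Pdgfra 0.23, limma p = 0.0522; Pdgfrb 0.19, limma p = 0.0898). With the rat series as a term both were called (0.25, p = 0.0355 and 0.21, p = 0.0495), and without rat 4107, which is in neither group but enters the common fit, Pdgfra was (p = 0.047). Within series a, where 35.8% of all genes were called, both were higher in AV, Pdgfra by 0.46 (limma, p = 0.00378, adjusted p = 0.0247) and Pdgfrb by 0.43 (limma, p = 0.00304, adjusted p = 0.0216). Series a holds rat 3989, which had the highest AV value of Pdgfra (1473) and ranked 2 of 12 for Pdgfrb (669). Over both series but without rat 3989 the differences were 0.17 (limma, p = 0.13) and 0.16 (limma, p = 0.164). In series b they were at -0.03 and -0.07. Src was at -0.15 (interval -0.34 to 0.04), Fyn at -0.02 (interval -0.13 to 0.08), Kit at 0.05 and Abl2 at -0.02, with none called.

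**Figure D3:**
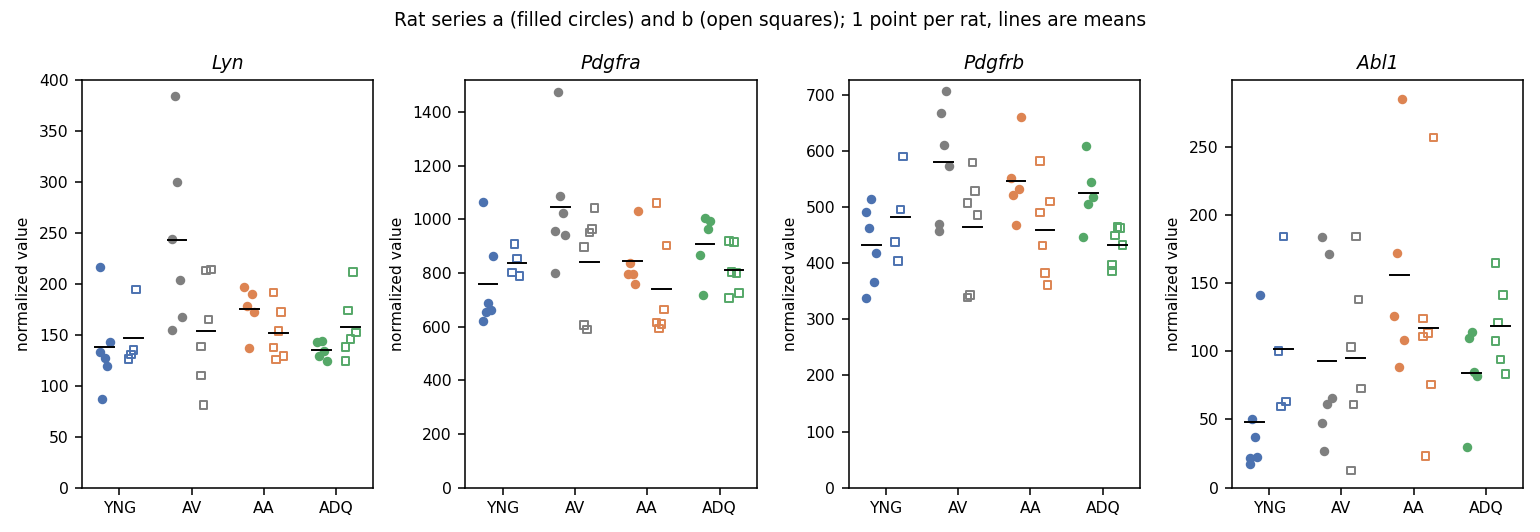
Normalized value (y axis, from 0) of Lyn, Pdgfra, Pdgfrb and Abl1 by group in rat series a (filled circles) and b (open squares), 1 point per rat, with lines at the means. For Lyn, AV rats of series a (155 to 385, the highest being rat 3989) lie above the ADQ rats of series a (124 to 144). No such separation is seen in series b.

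In AA against YNG, Abl1 and Ddr1 were called higher (2 of 10 members, against 26.6% of all genes, 12.6% higher and 14.1% lower). In ADQ against YNG, Abl1 and Kit were called higher (2 of 10, against 28.1% of all genes, 13.5% higher and 14.6% lower), and with all older groups averaged Abl1 and Ddr1 were (2 of 10, against 32.4%, 15.7% higher and 16.7% lower). At an adjusted p below 0.05 no member was called in these comparisons, where 3.85%, 7.08% and 14.9% of all genes were. The share of members called was below the share of all genes in each of these comparisons. They use the same YNG rats.

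Abl1, the kinase whose fusion with Bcr is the classical target of dasatinib, varied most among rats. Values of YNG rats ran from 17.2 to 184 (median 54.7), of AV from 12.4 to 184 (median 69.3), AA from 23.3 to 285 (median 114) and ADQ from 29.6 to 165 (median 108). The SD was 80.1% of the mean in YNG and 34.3% in ADQ, and all groups overlapped. The difference from YNG was 1.10 for AA (standard error 0.41, 2.15-fold; limma, p = 0.00987, adjusted p = 0.0862; permutation p = 0.0287) and 0.85 for ADQ (1.81-fold; limma, p = 0.0434, adjusted p = 0.164; permutation p = 0.0474). For AA it was 1.95 in series a (limma, p = 0.00097, adjusted p = 0.0166, where 30.6% of all genes were called). In series b it was 0.05 (limma, p = 0.928), and the series differed by 1.89 (limma, p = 0.0229, adjusted p = 0.208). With the library total as a term, neither was called (0.57 with p = 0.195 for AA, 0.35 with p = 0.42 for ADQ). The ADQ call also ended in 12 of 44 fits without a rat, with the highest p without V1 (0.106).

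Kit in ADQ against YNG (2374 ± 319, SD, n = 10, range 1990 to 3011) differed by 0.22 (standard error 0.08, 1.16-fold; limma, p = 0.0096, adjusted p = 0.0762; permutation p = 0.00978), and each of the 44 fits without a rat called it. With the library total as a term it was 0.14 (p = 0.118). Series a gave 0.15 (limma, p = 0.156) and series b 0.25 (limma, p = 0.0316), and the series did not differ past the threshold (limma, p = 0.529). With all older groups averaged, Kit differed from YNG by 0.12 (limma, p = 0.0719), or 0.13 without rat 3989 (p = 0.0442). Abl2 in ADQ against YNG differed by 0.26 (limma, p = 0.0599) and was called without rat 3989, which is in neither group but enters the common fit (p = 0.0243). The order of Kit means was YNG, AV, AA and ADQ, in which no neighbors differed past the threshold.

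Ddr1 in AA against YNG differed by 0.18 (limma, p = 0.0495, adjusted p = 0.187), which 25 of 44 fits without a rat did not call, and by 0.15 without rat 4107 (p = 0.114). From the row with the highest mean alone, Ddr1 differed by 0.10 and was not called (limma, p = 0.455). Its means stood, from lowest to highest, in the order YNG, ADQ, AA and AV, and among neighbors in that order none differed past the threshold. Lyn had the same order of means (141, 147, 162 and 198). For the averaged older groups, Abl1 differed by 0.81 (limma, p = 0.0204) and Ddr1 by 0.16 (limma, p = 0.0426). From the row with the highest mean alone, this difference of Ddr1 was 0.11 and not called (limma, p = 0.33). The Abl1 call ended without V1, V4 or V6 in turn (highest p 0.0699), and 15 of 44 fits without a rat ended the Ddr1 call, among them those without 3989 (p = 0.051) and 4107 (p = 0.0548).

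Fyn varied little within groups, with an SD that was 11.4% of the mean in AA and 4.47% (AV), 5.11% (ADQ) and 5.52% (YNG) elsewhere, and its mean differed little between groups (2475 to 2528). The table divides the value of Fyn over 4 rows whose identity it does not give. The largest row held 73.8% of the value, with means of 1747 (YNG), 1835 (AV), 1849 (AA) and 1951 (ADQ). A smaller row with 9.28% of the value had a mean of 320 ± 117 (SD, n = 10) for YNG and 168 ± 104 (SD, n = 11) for ADQ, with AV at 229 ± 115 (SD, n = 12) and AA at 220 ± 108 (SD, n = 11) between them. In a fit of all 20258 rows with a mean of at least 5, the ADQ minus YNG difference of this row was -1.03 (limma, p = 0.0025, adjusted p = 0.0559, with 23.4% of all rows called), while the Fyn sum differed by less than 0.01. The YNG and ADQ ranges of the row, 80.9 to 499.8 and 57.2 to 426, overlapped. Reads shared between rows were divided by estimate, so a difference between rows is less certain than a difference of the sum.

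To see which members vary with a cell type among rats of the same group, each member was set against the score of a marker list (mean log2 value) after removal of group means, over 44 rats and 10 pairs. Pdgfrb followed the pericyte and mural cell score (r = 0.72, rho = 0.75; permutation p = 1e-05 for both, the smallest that 100000 resamples can give; adjusted p = 5e-05 and 0.0001). It held in series a (r = 0.60) and series b (r = 0.67) and without the 2 rats farthest from the median score (r = 0.68). Ddr1 followed the oligodendrocyte score (r = 0.60, permutation p = 1e-05, adjusted p = 5e-05; rho = 0.45, permutation p = 0.00228, adjusted p = 0.0076), with r = 0.50 without the 2 farthest rats and 0.60 and 0.67 within the series. Abl2 followed the dentate granule cell score (r = 0.54, permutation p = 0.00101, adjusted p = 0.00253; rho = 0.48, permutation p = 0.00125, adjusted p = 0.00625), with r = 0.40 without rats 3989 and 4107.

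The other chosen pairs passed in r alone or in neither measure. Pdgfra and the oligodendrocyte precursor score gave r = 0.47 (permutation p = 0.00137, adjusted p = 0.00274) and rho = 0.33 (permutation p = 0.0302, adjusted p = 0.0603), with r = 0.40 without the 2 farthest rats, 0.16 in series a and 0.55 in series b. Lyn and the microglia score gave r = 0.42 (permutation p = 0.00481, adjusted p = 0.00687) and rho = 0.34 (permutation p = 0.0259, adjusted p = 0.0603), and r = 0.27 without rat 3989. Src with granule cells gave r = 0.49 (permutation p = 0.0006) but rho = 0.21 (permutation p = 0.177), with r = 0.30 without rats 3989 and 4107. Fyn with oligodendrocytes gave r = -0.46 (permutation p = 0.00205) but rho = -0.22 (permutation p = 0.155). Yes1 with endothelial cells (r = -0.04), Kit with interneurons (r = -0.10) and Abl1 with granule cells (r = 0.22) had permutation p of 0.796, 0.524 and 0.145, and rho of -0.06, -0.21 and 0.26 with permutation p of 0.688, 0.173 and 0.0877.

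The chosen lists were mostly not those with the largest relation. When each member was set against all 14 marker lists, 60 of 140 pairs passed an adjusted permutation p of 0.05 in both r and rho, from 2 of 14 for Abl1 and Yes1 to 10 of 14 for Ddr1. All scores come from the same libraries and dissections. For Pdgfrb the pericyte and mural cell score had the largest r of the 14 lists. Ddr1 had as large an r with astrocytes (r = 0.62, permutation p = 2e-05, adjusted p = 0.000156; rho = 0.49, permutation p = 0.00087, adjusted p = 0.00469) and with oligodendrocyte precursors (r = 0.61, permutation p = 2e-05; rho = 0.57, permutation p = 0.00012). Pdgfra followed the astrocyte score most (r = 0.83, rho = 0.72; permutation p = 1e-05 for both, adjusted p = 0.000127 and 0.00035), with r = 0.82 in series a, 0.83 in series b and 0.77 without the 2 farthest rats, and the oligodendrocyte precursor score was only 8 in order of size. Lyn also followed the astrocyte score most (r = 0.66, permutation p = 1e-05; rho = 0.55, permutation p = 0.00014), and the microglia score was 7 in order. Abl2 was most closely, and inversely, related to the microglia score (r = -0.70, permutation p = 1e-05; rho = -0.59, permutation p = 3e-05), with r = -0.53 without the 2 farthest rats. Kit was inversely related to the oligodendrocyte score (r = -0.63, permutation p = 1e-05; rho = -0.58, permutation p = 6e-05) and Src too (r = -0.69, permutation p = 1e-05; rho = -0.42, permutation p = 0.0051). All of these values describe variation among rats and not expression within cells.

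**Figure D4:**
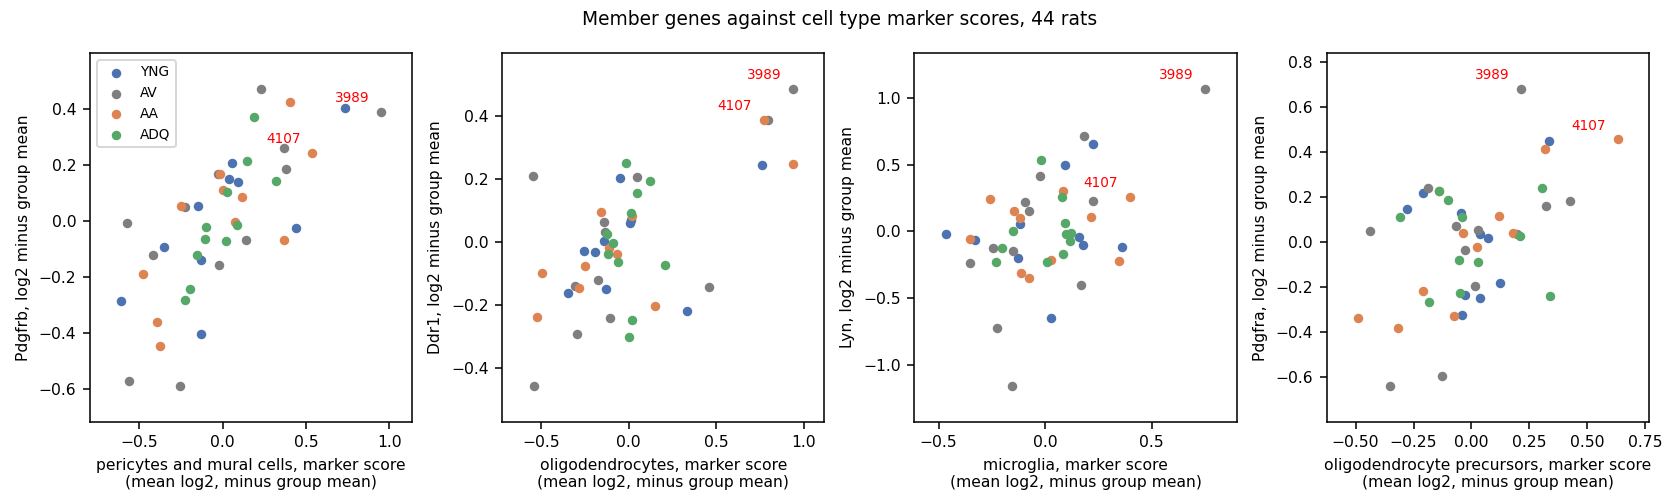
Log2 value of Pdgfrb, Ddr1, Lyn and Pdgfra minus the group mean (y axis) against the marker score of a cell type minus the group mean (x axis), 1 point per rat, colored by group, with rats 3989 and 4107 named in red. The points of Pdgfrb rise along the whole axis (r = 0.72), while rat 3989 lies far from the other rats for Lyn and the microglia score (r = 0.27 without it). The 4 pairs are among the 10 chosen, and Pdgfra and Lyn had larger r with the astrocyte score (0.83 and 0.66).

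The genes most like each member over the 44 rats after removal of group means were found by Pearson's r over all genes tested, as a description. Abl2 was most like Dlgap2 (r = 0.92), a postsynaptic scaffold gene, Shisa6 and Gpr158. Src was most like Ehd1, Camk2b and Slc17a7 (r = 0.91, 0.90 and 0.90), and Slc17a7 encodes a vesicular glutamate transporter. Pdgfra was most like Itga6, Sall1 and Ntrk2 (r = 0.89, 0.85 and 0.84), Kit like Chrna7, Cacna1c and Gpr158 (r = 0.85, 0.82 and 0.80), and Ddr1 like Jak3, Aldh16a1 and Ptp4a3 (each r = 0.87). For Pdgfrb these were Lama5, Abcc6 and Emp1 (r = 0.82, 0.81 and 0.80), and for Fyn Itpa, Cnrip1 and Napa (r = 0.81, 0.81 and 0.79). Lyn was most like Tns3, B2m and Mob1a (r = 0.77, 0.77 and 0.75), of which B2m encodes the light chain of class I major histocompatibility molecules. Abl1 was most like Pdlim5, Apba1 and Fam120a (r = 0.76, 0.73 and 0.72), and Yes1 like Lonrf3, Map3k20 and Smad5 (r = 0.71, 0.70 and 0.69). Many genes vary together among these rats: from 679 (Yes1) to 3421 (Abl2) genes had an r above 0.5 in size with a member.

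Genes around the members were counted by lists. Among the other Src family kinases, Lck, known from lymphocytes, was lower in ADQ than in AV (-0.57; limma, p = 0.0118, adjusted p = 0.413), as was Fgr, known from myeloid cells (-0.45; limma, p = 0.0315, adjusted p = 0.489). Without rat 3989 Lck was still called (p = 0.0277) and Fgr was not (p = 0.0765). Neither was called in AA against AV or in AV against YNG.

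Of 25 regulators and substrates of Src family kinases, 3 (12%, near the 9.32% of all genes) were lower in ADQ than in AV and none was higher (1 lower without rat 3989). They were Ptpn6 (-0.50; limma, p = 0.000461, adjusted p = 0.185), a phosphatase of blood and microglial cells, Ptprc, the pan-leukocyte phosphatase CD45 (-0.66; limma, p = 0.0278, adjusted p = 0.479), and Csk, the kinase that inhibits Src family members (-0.17; limma, p = 0.0407, adjusted p = 0.516). Ptprc had also been higher in AV than in YNG (1.49; limma, p = 9.91e-06, adjusted p = 0.00359), with means of 21.7 ± 7.64 (SD, n = 10) for YNG and 81.2 ± 70.8 (SD, n = 12) for AV. Values of Ptprc ran from 10.8 to 34.7 in YNG and from 14.98 to 236.2 in AV, so the ranges overlapped. Its differences without rat 3989 are not given here. The cell type markers given beside Lyn were lower in ADQ than in AV, and their part was not tested.

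Of 17 partners and substrates of the Abl kinases, Wasf1 was higher and Abi3 and Cables1 were lower in ADQ than in AV. That is 17.6%, against 9.32% of all genes, and the same counts were found without rat 3989. Wasf1 and Abi3 belong to the complex that starts branched actin. Bcr, the partner of Abl1 in the leukemia fusion, was lower in the older rats than in YNG (-0.33; limma, p = 0.00031, adjusted p = 0.0115), and 4 of these 17 genes were higher and 2 lower in that comparison (35.3%, near the 32.4% of all genes). Of 11 ligands of the receptors, Pdgfb alone was called in ADQ against AV (-0.22, limma p = 0.0337, adjusted p = 0.499). That is 9.09%, near the 9.32% of all genes. In the older rats against YNG, Pdgfa was lower (-0.38; limma, p = 0.000347, adjusted p = 0.0121) and the basement membrane collagens Col4a1 (0.62; limma, p = 0.00152, adjusted p = 0.0236) and Col4a2 (0.45; limma, p = 0.0059, adjusted p = 0.0444) were higher.

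Of 29 signaling genes downstream of the receptors, 1 was higher and 4 lower in ADQ than in AV (17.2%, against 9.32% of all genes). Without rat 3989 the counts were none and 3, and over all rats the median was -0.00 against 0.01 over all genes. Leading the called genes were Pik3cg, a phosphoinositide kinase subunit of leukocytes (-0.38, limma p = 0.00313, adjusted p = 0.266), and the adaptors Shc1 and Gab2 (-0.22 and -0.43). In the older rats against YNG, 9 were higher and 3 lower (41.4%, against 32.4% of all genes). Hras was among the lower genes (-0.52, limma p = 4.7e-05, adjusted p = 0.00563). Of 28 other kinases known to bind dasatinib, 2 were higher and 5 lower in ADQ than in AV (25%, against 9.32% of all genes). Without rat 3989, 1 was higher and 3 were lower, where 6.89% of all genes were called. Csf1r, the receptor that microglia depend on, was 2308 ± 528 (SD, n = 12) in AV and 1754 ± 227 (SD, n = 11) in ADQ (-0.37; limma, p = 0.00264, adjusted p = 0.266) and differed by -0.28 in AA against AV (limma, p = 0.0225, adjusted p = 0.999). The ephrin receptor gene Epha5 was higher in ADQ than in AV (0.28; limma, p = 0.0101, adjusted p = 0.399) and lower in AA than in ADQ (-0.34; limma, p = 0.00298, adjusted p = 0.981).

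**Figure D5:**
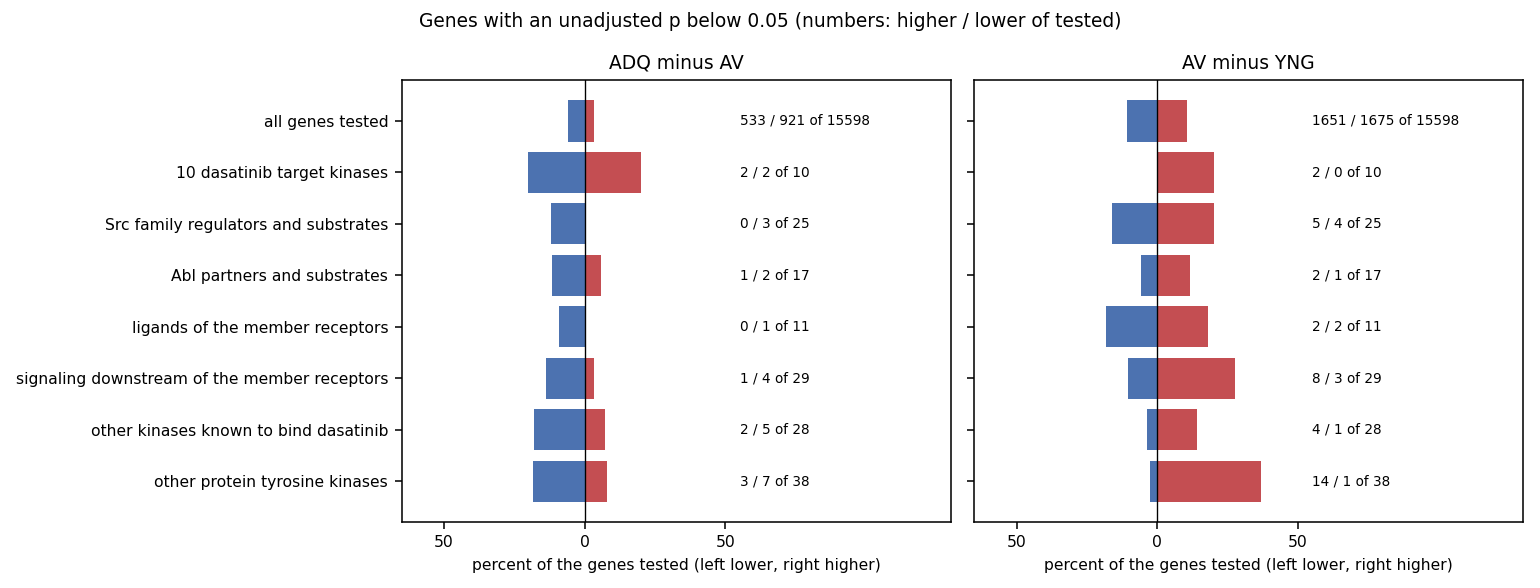
Percent of the genes tested in each list with an unadjusted p below 0.05 (x axis, lower to the left, higher to the right) in ADQ minus AV and AV minus YNG, with the counts printed beside the bars. All genes tested give 3.42% higher and 5.9% lower in ADQ minus AV, and 10.6% higher and 10.7% lower in AV minus YNG.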

How the data were processed

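RNA of the dentate gyrus of 44 rats was measured by poly(A)-selected RNA sequencing, 1 library per rat. According to the study's methods and the submitters' processing notes, the authors aligned reads to rn6 with STAR 2.5.3a using Partek Flow, applied median ratio scaling and ran DESeq2; the annotation is not given in the sources used here, and the labels name another sequencer than the methods. The deposited values are signal, that is, reads estimated for a row after division by the size factor of its library, and not counts, so no count model was used and the depth in reads is unknown. Rows (24694) that share a gene identifier (18347) were added together. The table of sample attributes gave the group of each rat.

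Values were taken as log2(value + 1). Genes with a mean of at least 5 (15598) were fitted with limma 3.58.1 (empirical Bayes with trend) in R 4.3.3 with the data.table package (version 1.17.8), in a single fit of all 4 groups with no covariate. Tests were two-sided, a gene was called at an unadjusted p below 0.05, the threshold of the paper, and the Benjamini-Hochberg adjusted p is given beside it. A pseudocount of 1 makes differences of low genes smaller. Differences of group means were also tested by permutation with 100000 resamples, and marker relations likewise, adjusted over 10 pairs and, as an addition made after the data were seen, over all 140; the script was checked on simulated data. Series a holds rats 3890 to 4011 and V1 to V6. Series b holds rats 4031 to 4110 (AA and ADQ), 4566 to 4572 (AV) and V9 to V12. Within-series values come from a fit with group by series terms. The rest ran in Python 3.11.15 (pandas 2.3.3, numpy 2.4.6, matplotlib 3.10.9, scipy 1.17.1).

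The members, the gene lists, the series and the rats examined separately were chosen with earlier results of these data known, and lists are described by counts only. Named besides the members are, of each list and comparison, at most the 3 called genes with the smallest p, and the 3 genes most like each member. Alternatives changed the pseudocount, the filter on low values, the rows used, the scaling, the covariates, the weights, the groups fitted and the rats included. The values of a further listed gene are not reported here.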

Additional observations from a re-analysis of the deposited data

Results flagged for a closer look

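For 9 of 70 differences between rat series a and b in the size of a comparison, the limma test of the difference itself gave an unadjusted p below 0.05, and 0 passed after adjustment over all genes. Chance gives such a p in about 1 of 20 tests, and the 70 tests share rats. Over all genes the same test gave such a p for 21.8% in AV minus YNG and 17.3% in AA minus YNG. The share was 8.89% in ADQ minus YNG, 20.3% in averaged older minus YNG and 4.03% in ADQ minus AV. For Lyn, ADQ minus AV was lower in series a than in series b by -0.87 (-0.77 against 0.10), and AV minus YNG was higher by 0.78 (0.79 against 0.01). Pdgfra in AV minus YNG differed between the series by 0.49 (0.46 against -0.03), and in the averaged older groups minus YNG by 0.40 (0.30 against -0.10). For Pdgfrb the difference was 0.50 in AV minus YNG (0.43 against -0.07), 0.42 in AA minus YNG (0.35 against -0.07), 0.44 in ADQ minus YNG (0.29 against -0.15) and 0.45 in the averaged older groups minus YNG (0.35 against -0.10). Abl1 in AA minus YNG differed by 1.89 (1.95 against 0.05). Series a holds 6 YNG rats and series b holds 4, so the comparisons with YNG share these few rats. The AV rats of series b form a run of rat numbers apart from its AA and ADQ rats. Over all genes, 35.8% were called in AV minus YNG in series a and 4.91% in series b. In the 10 YNG groups of member values no rat passed the test for a single distant value. The test was not run in the groups of 11 and 12 rats, which include those of rats 3989 and 4107.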

How the results depend on the processing

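No paired analysis was possible because the labels give no replicate numbers shared between groups. Counts of members called were, in the order ADQ minus AV, AA minus AV, AA minus ADQ, AV minus YNG, AA minus YNG, ADQ minus YNG and averaged older minus YNG, 4, 1, 0, 2, 2, 2 and 2 as reported. With an adjusted p they were 0 throughout. Scaled to an equal library total they were 2, 0, 0, 4, 5, 4 and 7, with array weights 3, 1, 1, 8, 3, 5 and 9, in series a alone 2, 0, 0, 4, 2, 2 and 5 and in series b alone 1, 0, 0, 1, 0, 1 and 1. With the rat series as a term they were 3, 1, 0, 4, 1, 1 and 2, with the library total as a term 3, 1, 0, 1, 1, 0 and 1, from the row with the highest mean 4, 1, 0, 1, 2, 2 and 1, and with robust empirical Bayes 4, 1, 0, 2, 1, 2 and 2. From the groups compared alone they were 2, 0, 1, 1, 2 and 3 (not run for averaged older minus YNG), and without rats 3989 and 4107, chosen after the data were seen, 1, 1, 0, 2, 1, 3 and 2. Leaving out 1 rat at a time gave 0 to 4, 0 to 1, 0 to 0, 2 to 4, 1 to 2, 1 to 3 and 0 to 3. The count of 0 in ADQ minus AV came without rat 3989. Other pseudocounts (0.5 and 8) and filters left the counts as reported. The share of all genes called also moved. For AV minus YNG it was 21.3% as reported, and 35.8% in series a and 4.91% in series b in the fit with group by series terms. For ADQ minus AV it was 9.32% as reported and 7.28% without rats 3989 and 4107. Shares under the remaining settings are not given here, so those counts are not a result about the members.

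The sign changed in 4 instances. For a called value this was Lyn in ADQ minus AV in series b alone (0.10, p = 0.634). The others were near 0 and not called as reported: Abl2 in AV minus YNG with array weights (0.23, p = 0.0288), and Fyn with an equal library total in ADQ minus YNG (0.14, p = 0.0236) and in averaged older minus YNG (0.11, p = 0.0304). The equal library total set the median over all genes at 0.12 in AA minus YNG, 0.12 in ADQ minus YNG and 0.11 in averaged older minus YNG, against 0.00, 0.01 and 0.00 as reported; the cause of the other changes was not tested. Across single members, 998 values under other settings kept their side of the threshold, 48 lost it and 50 gained it. Depth in reads is unknown, and the spread between rats limits Abl1 and Yes1 most.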

Other observations

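Of 38 other protein tyrosine kinase genes, 14 were higher and 1 was lower in AV than in YNG (median 0.22, where 10.6% of all genes were higher and 10.7% lower). Leading them were Flt1 (1.06; limma, p = 1.7e-05, adjusted p = 0.00504) and Kdr (1.28; limma, p = 6.8e-05, adjusted p = 0.0109), the receptors for vascular endothelial growth factor, and Fes (1.02; limma, p = 6.3e-05, adjusted p = 0.0107), a cytoplasmic kinase. Leaving out rat 3989 gave counts of 15 higher and 1 lower. Kdr ran from 67.41 to 1071 in AV (mean 252, SD 281.9) and from 43.37 to 130.3 in YNG. Flt1 ran from 624.7 to 2910 in AV (mean 1059, SD 630.8) and from 245.3 to 1297 in YNG. The ranges overlapped, and differences of the kinases named here without rat 3989 are not given. In ADQ against AV, 3 of the 38 genes were higher and 7 lower (26.3%, against 9.32% of all genes), and without rat 3989 the counts were 1 and 4. Among those lower over all rats were the vascular receptors Tie1 (-0.50, limma p = 0.00285, adjusted p = 0.266), Kdr (-0.81, limma p = 0.00688, adjusted p = 0.367) and Flt4 (-0.61, limma p = 0.00724, adjusted p = 0.368). Endothelial markers share Flt1 and Tek with the kinase lists. They were higher in AV than in YNG for 8 of 8 genes and lower in ADQ than in AV for 5 of 8 (3 without rat 3989). Their summed values were 1429 to 4535 in YNG, 2443 to 9363 in AV and 2443 to 3112 in ADQ. Rat 3989 gave the highest sum in AV. The part of these markers in the kinase values was not tested.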
